A study of Mus musculus with 12 samples.

Results

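Ccl1 and Ccr8, a chemokine gene and the gene of its receptor, were followed in dendritic cells (DCs) from mice that differed in age and gut microbiota. Every probe of either gene was taken, which gave 1 probe each, so the pair makes up 2 of the 24232 genes and 2 of the 56605 probes measured. Ccl1 was chosen by its measured levels over the same 12 arrays, so its values are a description and carry no test. Ccr8 was taken with it as the gene of its receptor, also with results of these arrays known.

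The arrays were single-colour Agilent mouse arrays, on which the brightness of a spot of DNA probe measures a transcript, and each of 4 groups had 3 of them (replicates A, B and C). All cells were grown from bone marrow of female C57BL/6 mice for 7 days with GM-CSF (2 ng/mL) and IL-4 (4 ng/mL) and were then stimulated with LPS (1 μg/mL), a component of the outer membrane of bacteria, for 24 h, so all groups were stimulated and none was left unstimulated. DC Young came from mice labelled 2 months old. DC Dysbiotic came from mice labelled 2 months old whose drinking water held ampicillin, neomycin, metronidazole and vancomycin. DC Old came from mice labelled 24 months old. DC Old-LP came from mice labelled 24 months old that received Lactobacillus plantarum (LP) by gavage. Each array carried RNA of a pool of 3 mice, and the paper describes the 3 sets as independent. The labels do not tie A and B of a group to separate cultures. The errors therefore measure the spread between arrays, which may be technical. Markers of other cells were detected beside those of DCs. All 12 DC marker genes (among them Itgax, H2-Ab1 and Cd74) were bright in at least 1 group (well above background on all its arrays), and so were all 10 macrophage and monocyte markers and all 9 T cell markers.

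The A and B arrays of all groups lay on slide 1, the C arrays of DC Young and DC Dysbiotic on slide 2, and those of DC Old and DC Old-LP on slide 3. The C arrays were dimmer, with 37.3 to 46.0% of spots well above background against 61.2 to 66.4% on slide 1. Values for slide 1 alone and for the C arrays alone are given where they differed in direction or size.

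Chemokines are small secreted proteins that draw cells along a gradient, and the CC chemokines are named for a pair of adjacent cysteines. CCL1 is made by activated T cells, by mast cells and by some activated macrophages and DCs. It acts through CCR8, a receptor coupled to G proteins that is carried mainly by regulatory T cells (Tregs), Th2 cells and skin-homing T cells. In the mouse, CCL8 is a further ligand of CCR8, so Ccl8 was read as the closest functional neighbour of Ccl1.

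Ccl1 lies on chromosome 11 among CC chemokine genes, on the minus strand, and in the RefSeq order its nearest protein-coding genes were Ccl8 on one side, followed by Ccl12, and Tmem132e on the other. The 250 bases before the annotated start of Ccl1, Ccl8 and Ccr8 are printed because the first pair are neighbours whose signals went opposite ways, and Ccr8 is the receptor gene. They come from RefSeq (build GRCm38.p6), at chr11:82179813-82180062 (minus strand) for Ccl1, chr11:82114935-82115184 (plus strand) for Ccl8 and chr9:120091883-120092132 (plus strand) for Ccr8, and run 5′ to 3′. Both strands were searched for the NF-κB consensus, for the STAT6 palindrome (TTC and GAA with any 4 bases between them, of a factor activated by IL-4), and for TATAAA, the letters of a TATA box. Capitals mark matches.
Ccl1: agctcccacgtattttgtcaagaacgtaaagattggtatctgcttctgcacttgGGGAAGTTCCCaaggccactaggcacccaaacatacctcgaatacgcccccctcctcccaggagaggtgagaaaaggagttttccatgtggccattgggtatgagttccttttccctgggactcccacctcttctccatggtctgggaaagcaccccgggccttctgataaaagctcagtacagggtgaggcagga
Ccl8: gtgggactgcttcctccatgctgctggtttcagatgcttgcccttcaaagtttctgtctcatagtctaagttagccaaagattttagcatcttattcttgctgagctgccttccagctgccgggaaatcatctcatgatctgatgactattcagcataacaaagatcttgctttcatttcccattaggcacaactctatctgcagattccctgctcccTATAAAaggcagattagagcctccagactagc
Ccr8: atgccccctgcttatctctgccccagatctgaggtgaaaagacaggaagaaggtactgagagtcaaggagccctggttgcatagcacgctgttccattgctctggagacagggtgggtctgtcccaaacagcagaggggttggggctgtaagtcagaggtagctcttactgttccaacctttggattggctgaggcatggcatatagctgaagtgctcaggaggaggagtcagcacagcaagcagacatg

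The Ccl1 window held 2 overlapping matches to the NF-κB consensus, which together span 196 to 186 bases before the start, and no TATAAA. The Ccl8 window held TATAAA at 32 to 27 bases before the start and no NF-κB match, and the Ccr8 window held neither. None of the 3 windows held the STAT6 palindrome. Of 32851 windows of the same length, 7.25% held the NF-κB consensus, 5.85% held the STAT6 palindrome and 12.4% held TATAAA. These matches describe the letters and are not evidence of binding.

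Ccl1 was low in DC Old and high in the other groups. On the normalized log2 scale, its signal in DC Young was 10.94 on A, 10.89 on B and 11.25 on C. In DC Dysbiotic it was 9.93, 9.75 and 11.14 in the same order. In DC Old it was 6.03, 5.66 and 6.26, and in DC Old-LP it was 10.96, 10.83 and 10.59. Every array of DC Old lay below every array of the other groups, and the other groups overlapped each other. DC Young had a mean of 11.03 ± 0.19, DC Old-LP 10.80 ± 0.19, DC Dysbiotic 10.28 ± 0.76 and DC Old 5.99 ± 0.31 (SD, n = 3 arrays each). The arrays of DC Young and DC Old-LP, the neighbours at the top of this order, overlapped, and DC Dysbiotic spread more widely than the rest, with its C array above its A and B arrays.

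**Figure D1:**
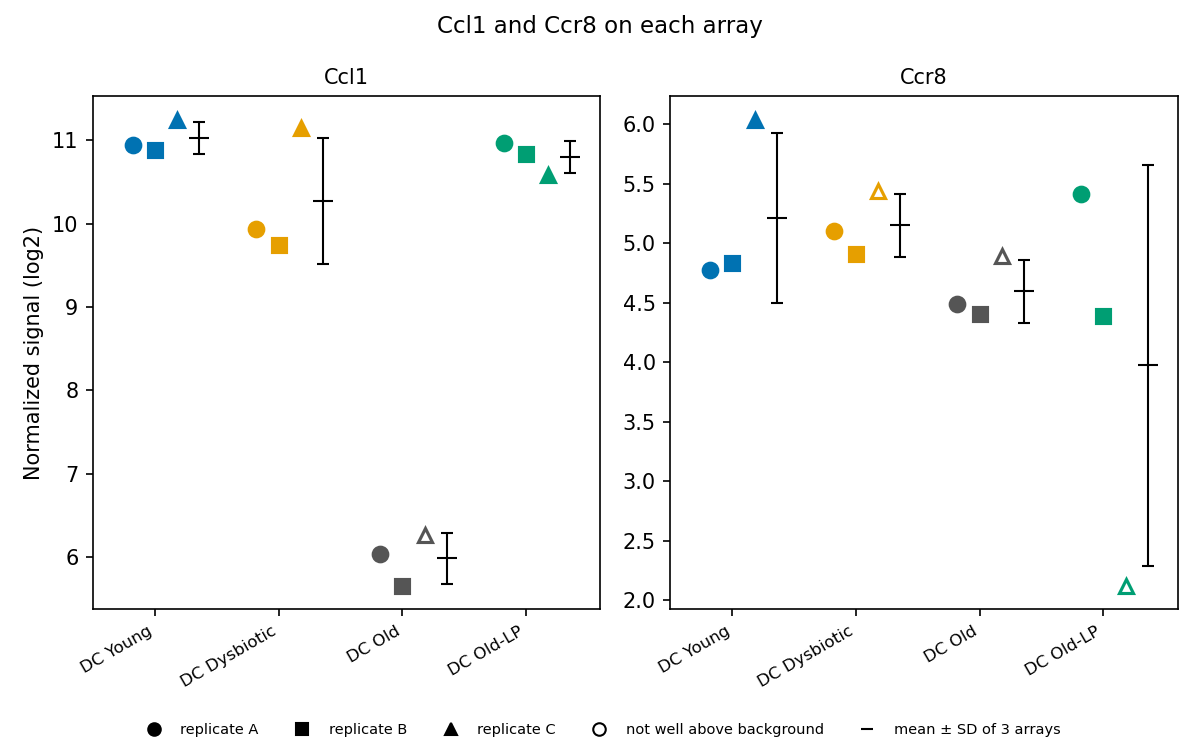
Normalized log2 signal (vertical axis) of Ccl1 (left) and Ccr8 (right) on each of the 12 arrays, with 3 arrays per group along the horizontal axis. Open symbols were not well above background, and bars give the mean ± SD. Ccl1 sits at 5.66 to 6.26 in DC Old and at 9.75 to 11.25 in the other groups. Ccr8 sits at 2.12 to 6.04 with overlapping groups, apart from DC Old and DC Dysbiotic, which nearly touch (4.90 on DC Old C, an open symbol, and 4.91 on DC Dysbiotic B).

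The mean of DC Old minus that of DC Young was -5.04 log2 units, so Ccl1 was 32.9-fold lower in DC Old. The mean of DC Old-LP was 4.81 units above that of DC Old (28.1-fold). The difference between DC Old and DC Dysbiotic was -4.29 (19.6-fold lower in DC Old). On slide 1 alone the first of these differences was -5.07 and the second 5.05, and on the C arrays alone they were -4.98 and 4.33. The probe was not well above background on DC Old C, so the C values and the folds rest in part on a level known only to be dim, and set against the lowest signal well above background on that array, DC Young C was at least 24.2-fold higher and DC Old-LP C at least 15.4-fold higher. Between DC Dysbiotic and DC Young the difference was -0.75, of which slide 1 gave -1.07 and the C arrays -0.10. Between DC Old-LP and DC Dysbiotic it was 0.52, with 1.06 on slide 1 and -0.55 on the C arrays, so its direction depended on the slide. Ccl1 in DC Old-LP differed from DC Young by -0.23.

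Before normalization, DC Old had the lowest intensity on slide 1 and among the C arrays. On slide 1, Ccl1 read 3318 and 3487 in DC Young, 1532 and 2066 in DC Dysbiotic, 117.8 and 74.5 in DC Old, and 3256 and 4189 in DC Old-LP. On the dimmer C arrays it read 930, 1183, 13.8 and 420.8 in the same order of groups, so that DC Dysbiotic C was brighter than DC Young C, although C arrays lie on different slides and differ in brightness as a whole. On 11 arrays of the 12 the probe stood well above background. The exception was DC Old C, where the lowest normalized signal called well above background was 6.65 and the probe stood at 6.26, so its level there is only known to be dim. In the authors' deposited table, which was made without background subtraction, DC Young had 11.18 ± 0.28, DC Old-LP 10.96 ± 0.19, DC Dysbiotic 10.44 ± 0.75 and DC Old 7.09 ± 0.25 (SD, n = 3), and the difference of DC Old from DC Young narrowed to -4.08. By size of the difference of DC Old from DC Young, Ccl1 ranked 10 among 13024 genes well above background on every array of a group, and it ranked 4 for DC Old-LP versus DC Old. These ranks come from the values by which Ccl1 was chosen and only describe them.

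A difference was called where limma, fitted over all probes, gave it a Benjamini-Hochberg adjusted p no higher than 0.05 and its size was 0.5 log2 units or more. Of all probes, 0.62% were called for DC Old versus DC Young, 0.344% for DC Dysbiotic versus DC Young, 0.348% for DC Old-LP versus DC Old and 0.163% for DC Old-LP versus DC Dysbiotic. Counts at an unadjusted p need an unadjusted p of at most 0.05 and a size of 0.5 log2 units or more. Of the 56605 probes, 3396 passed both for DC Old versus DC Young and 3280 for DC Old-LP versus DC Old. For DC Old-LP versus DC Young 632 passed, while limma called 0% (0 probes). For DC Old versus DC Dysbiotic it called 0.00177%, which is 1 probe. That probe is the one of Ccl1, and since Ccl1 was chosen on these arrays nothing is read from it.

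Ccr8 showed no called difference in any of the 6 comparisons. Its signal was 4.77, 4.83 and 6.04 in DC Young (A, B and C), 5.10, 4.91 and 5.44 in DC Dysbiotic, 4.49, 4.40 and 4.90 in DC Old, and 5.41, 4.39 and 2.12 in DC Old-LP. All pairs of groups overlapped except DC Old and DC Dysbiotic, which were apart only by 4.90 on DC Old C against 4.91 on DC Dysbiotic B. Ccr8 was not well above background on DC Old C, so that order is not established. It stood well above background on 9 arrays of the 12, and DC Dysbiotic C, DC Old C and DC Old-LP C were the exceptions. In the limma fit the difference of DC Old from DC Young was -0.62 (SE 0.70, 95% interval -2.18 to 0.94, adjusted p = 1.00). For DC Old-LP versus DC Old it was -0.62 (95% interval -2.18 to 0.94), and for DC Old versus DC Dysbiotic it was -0.56 (95% interval -2.12 to 1.00). The widest difference, DC Old-LP versus DC Young, was -1.24 (95% interval -2.80 to 0.32). It came from the C arrays, with -3.92 there and 0.10 on slide 1. These intervals are wide and do not show that the levels were alike. In a fit to slide 1 alone, where the SE was 0.32, the differences were -0.36 for DC Old versus DC Young (adjusted p = 0.61) and 0.46 for DC Old-LP versus DC Old (adjusted p = 0.49).

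The other ligand of CCR8, Ccl8, was high in DC Old and DC Dysbiotic and lower in DC Young and DC Old-LP. Its signal was 10.59, 10.46 and 10.77 in DC Young, 12.53, 12.38 and 12.53 in DC Dysbiotic, 12.60, 12.57 and 12.46 in DC Old, and 10.63, 10.54 and 11.02 in DC Old-LP. No array of the higher pair of groups reached down to the lower pair. Ccl8 rose by 1.93 (SE 0.21, limma adjusted p = 0.0028) in DC Old and by 1.87 (SE 0.21, adjusted p = 0.0048) in DC Dysbiotic, each versus DC Young. It fell by 1.81 (adjusted p = 0.0082) in DC Old-LP versus DC Old and by 1.75 (adjusted p = 0.017) versus DC Dysbiotic. The comparisons share arrays and are not independent of each other. The Ccl8 arrays of DC Old and DC Dysbiotic overlapped (a difference of 0.06, not called), while for Ccl1 these groups were separate. The calls of Ccl8 versus DC Young held in 22 of 23 other settings for DC Old and in 23 of 23 for DC Dysbiotic, and those of DC Old-LP in 17 and 16 of 23 (relative to DC Old and DC Dysbiotic). The call relative to DC Old was lost without DC Old A, DC Old B, DC Old-LP A or DC Old-LP B (adjusted p 0.057 to 0.070), and that relative to DC Dysbiotic without any 1 array of DC Dysbiotic or without DC Old-LP A or B (0.082 to 0.12).

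**Figure D2:**
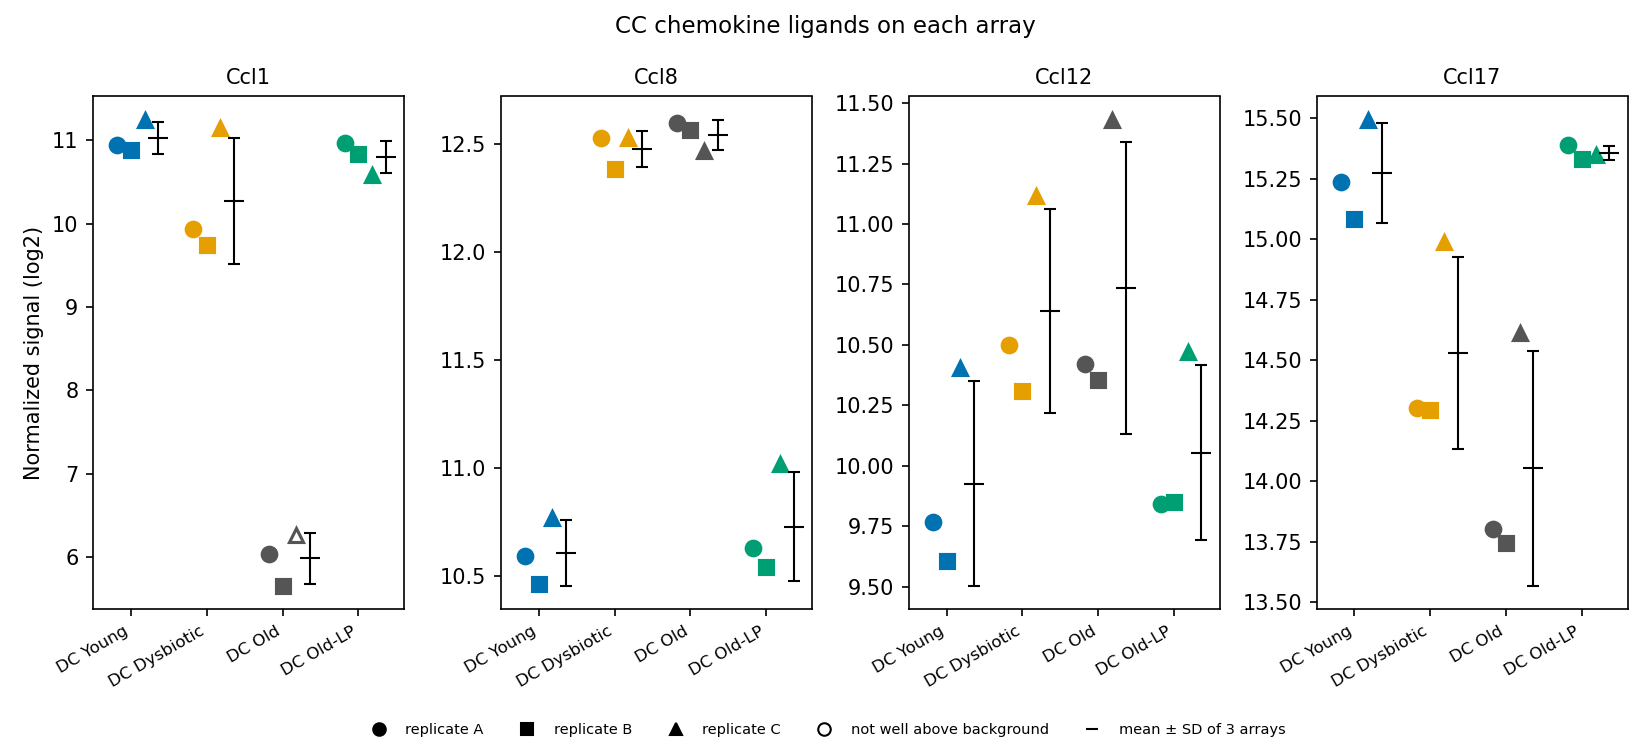
Normalized log2 signal (vertical axes, each with its own range) of Ccl1 and of the CC chemokine genes Ccl8, Ccl12 and Ccl17 on each array, by group along the horizontal axis. Symbols mark replicates A, B and C, open symbols were not well above background, and bars give the mean ± SD. Ccl8 is at 12.38 to 12.60 in DC Dysbiotic and DC Old and at 10.46 to 11.02 in DC Young and DC Old-LP, opposite to Ccl1 in DC Old.

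Of the 19 other CC chemokine ligand genes with a probe, Ccl8 was the only one called in any comparison. That is 1 of 19 in each of the comparisons in which it was called, beside 0.163 to 0.62% of all probes. The median difference of the 19 was -0.10 for DC Old versus DC Young, beside 0.00259 over all genes, and 0.18 for DC Old-LP versus DC Old, beside 0.0106 over all genes. For DC Old versus DC Young this median was -0.30 on slide 1 and 0.20 on the C arrays. Ccl11, Ccl20 and Ccl26 were on no array well above background. The very bright Ccl5, an attractant of T cells and monocytes, differed by -0.01 between DC Old and DC Young. Ccl17, a ligand of CCR4 that draws Th2 cells and Tregs, was 15.24, 15.08 and 15.49 in DC Young, 14.30, 14.30 and 14.99 in DC Dysbiotic, 13.80, 13.74 and 14.61 in DC Old, and 15.39, 15.33 and 15.35 in DC Old-LP. Its arrays of DC Old lay below those of DC Young and DC Old-LP, with differences of -1.22 (SE 0.29, adjusted p = 0.16) and 1.30 (adjusted p = 0.15), neither called. With the replicate letter as a block in the model both were called (adjusted p = 0.019 each), among 3 ligands called for DC Old versus DC Young, where that model called 2.18% of all probes, and 2 for DC Old-LP versus DC Old, where it called 1.65%. Ccl12, a monocyte attractant encoded beside Ccl8, had a difference of 0.81 for DC Old versus DC Young (adjusted p = 0.87) and was called with that block (adjusted p = 0.026). Of the 5 other genes of the cluster around Ccl1 (Ccl2, Ccl7, Ccl11, Ccl12 and Ccl8), 1 was called for DC Old versus DC Young, beside 0.62% of all probes. This was Ccl8 again. In a fit to slide 1 alone, chosen after seeing the data, 7 ligands were called for DC Old versus DC Young, at 9.17% of all probes, and 8 for DC Old-LP versus DC Old, at 8.24%.

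**Figure D3:**
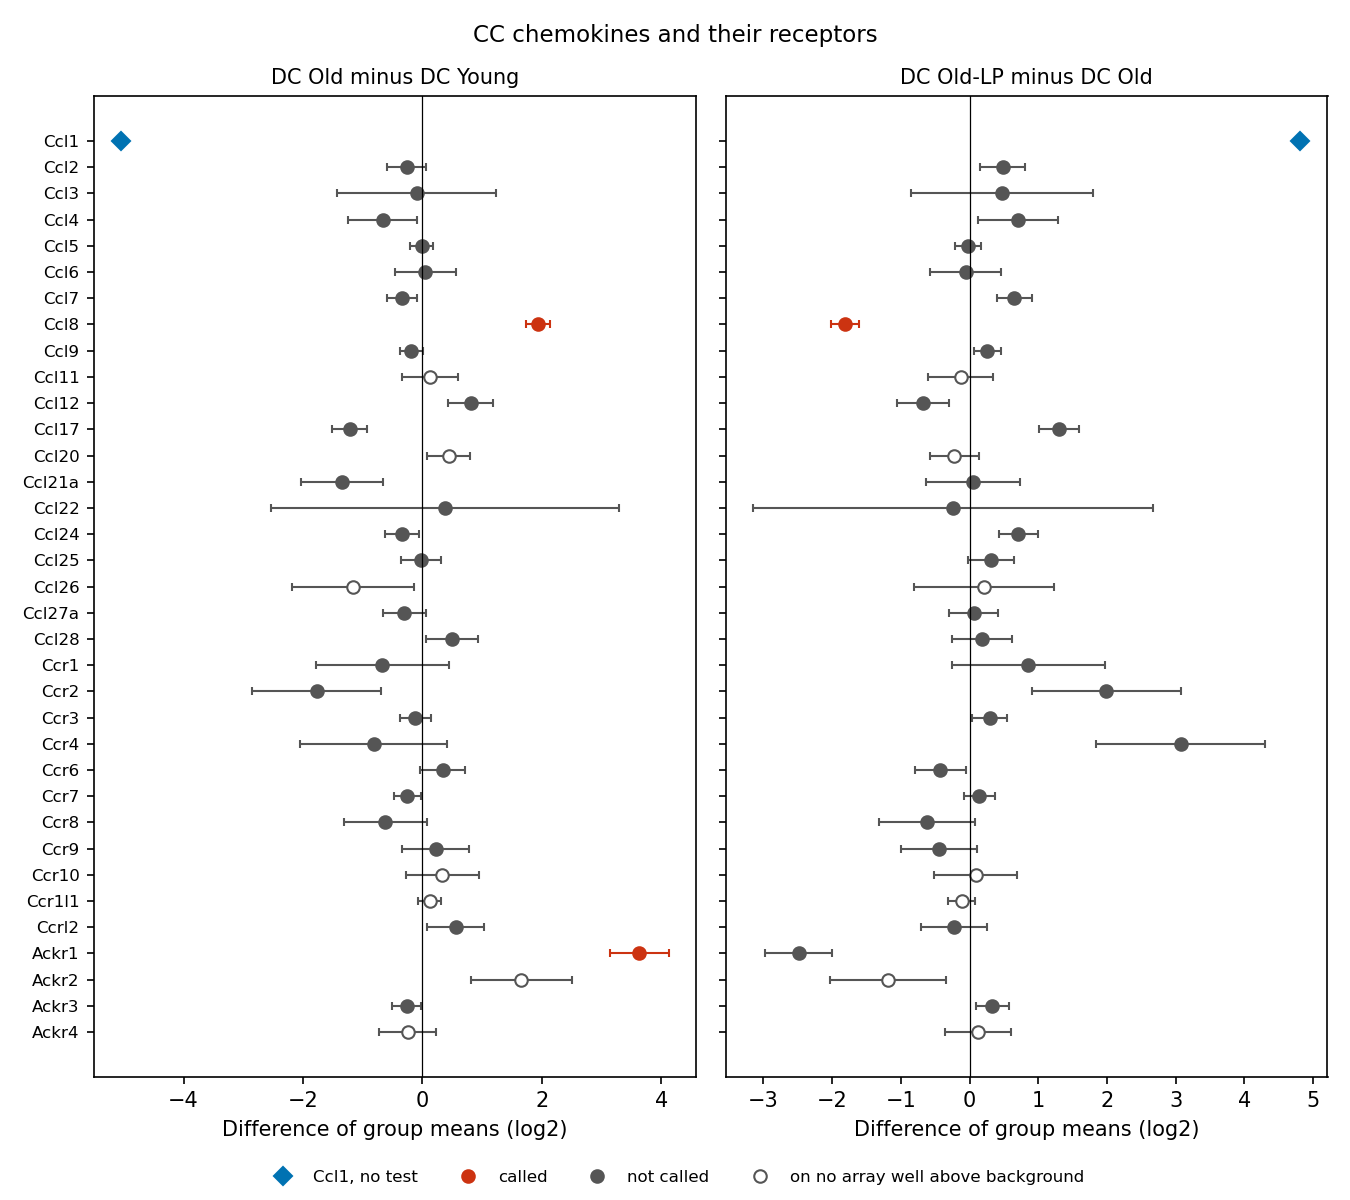
Differences of group means on the log2 scale (horizontal axes) for the CC chemokine ligands, 11 of the 12 receptors and the atypical receptors, DC Old minus DC Young on the left and DC Old-LP minus DC Old on the right. Bars are standard errors of the limma fit, red marks called genes, open symbols were on no array well above background, and Ccl1 is drawn without an error because it has no test. Ccl1 lies at -5.04 and 4.81, Ccl8 at 1.93 and -1.81, and Ackr1 at 3.64 and -2.49.

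Of the 12 CC chemokine receptor genes, Ccr8 among them, 0 were called by limma in any comparison (at an unadjusted p, 1 for DC Old versus DC Young and 2 for DC Old-LP versus DC Old). Their median difference was -0.19 for DC Old versus DC Young and 0.12 for DC Old-LP versus DC Old. Ccr2, which brings monocytes out of the bone marrow, differed by -1.77 for DC Old versus DC Young and by 1.99 for DC Old-LP versus DC Old, both uncalled (SE 1.08). Its C arrays stood 2 to 3 log2 units below A and B in every group, and with the replicate letter as a block both differences were called (adjusted p = 0.0041 and 0.0040). Ccr4, the receptor of Ccl17, had a difference of 3.07 for DC Old-LP versus DC Old (adjusted p = 0.75) that rests on DC Old-LP C, since slide 1 alone gave 1.1. Among 4 atypical chemokine receptors, which bind chemokines without signalling through G proteins, Ackr1 was called, and the other three were not. Ackr1 read 6.52, 6.11 and 7.04 in DC Young, 9.70, 9.68 and 10.44 in DC Dysbiotic, 9.95, 10.03 and 10.60 in DC Old, and 7.09, 7.15 and 8.88 in DC Old-LP. It rose by 3.64 (SE 0.49, adjusted p = 0.0094) in DC Old and by 3.38 (adjusted p = 0.020) in DC Dysbiotic versus DC Young, and its -2.49 for DC Old-LP versus DC Old was not called (adjusted p = 0.083; 0.0053 with the replicate block). The call for DC Old held in 20 of 23 other settings and was lost without DC Young A or B (adjusted p = 0.060 each). That for DC Dysbiotic held in 18 and was lost without DC Young A or B or any 1 array of DC Dysbiotic (0.088 to 0.12). A second Ackr1 probe gave 3.69 and 3.30 for the comparisons with DC Young.

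The genes whose pattern over the 12 arrays was most like that of Ccl1 were found by Pearson's r among 6197 other genes that varied and were bright in at least 1 group. They are a description, since the arrays share slides and groups, and no p is given. The first 8 were Rab6b (r = 0.97), 6330403K07Rik (0.97), Gzmc (0.96), Kif11 (0.95), Sucnr1 (0.95), Gm34907 (0.94), Ccn3 (0.93) and Gm4956 (0.93). On slide 1 alone their r with Ccl1 ranged from 0.94 to 0.98. Among the 6197 genes their ranks there were 10, 13, 20, 37, 36, 130, 127 and 73 in the order named. Genes outside this list were thus closer to Ccl1 on slide 1, and which genes come first depends on the C arrays. Rab6b, a small GTPase of Golgi traffic, read 8.19, 8.24 and 7.53 in DC Young and 3.47, 1.78 and 2.02 in DC Old. On DC Old B and C it lay below the lowest signal called well above background there (3.61 and 6.65). Rab6b, 6330403K07Rik and Gm34907 were each well above background on only 9 arrays, so the sizes of their differences rest on dim signals in DC Old. Gzmc, a granzyme of cytotoxic lymphocytes, read 14.14, 14.12 and 14.91 in DC Young and between 12.09 and 12.13 in DC Old. Sucnr1, the receptor for succinate, had means of 8.08 in DC Young, 7.28 in DC Dysbiotic and 8.42 in DC Old-LP, with 5.51 for DC Old. Kif11, a motor protein of the mitotic spindle, went from 6.69 in DC Young to 5.40 in DC Old. Each of the 8 had its lowest mean in DC Old and its next lowest in DC Dysbiotic, as Ccl1 did. Since they were picked for likeness to Ccl1, nothing further is read from this order. For Ccl1 itself the place of DC Dysbiotic depended on the slide, with DC Old-LP above it by 1.06 on slide 1 and a difference of -0.55 on the C arrays.

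**Figure D4:**
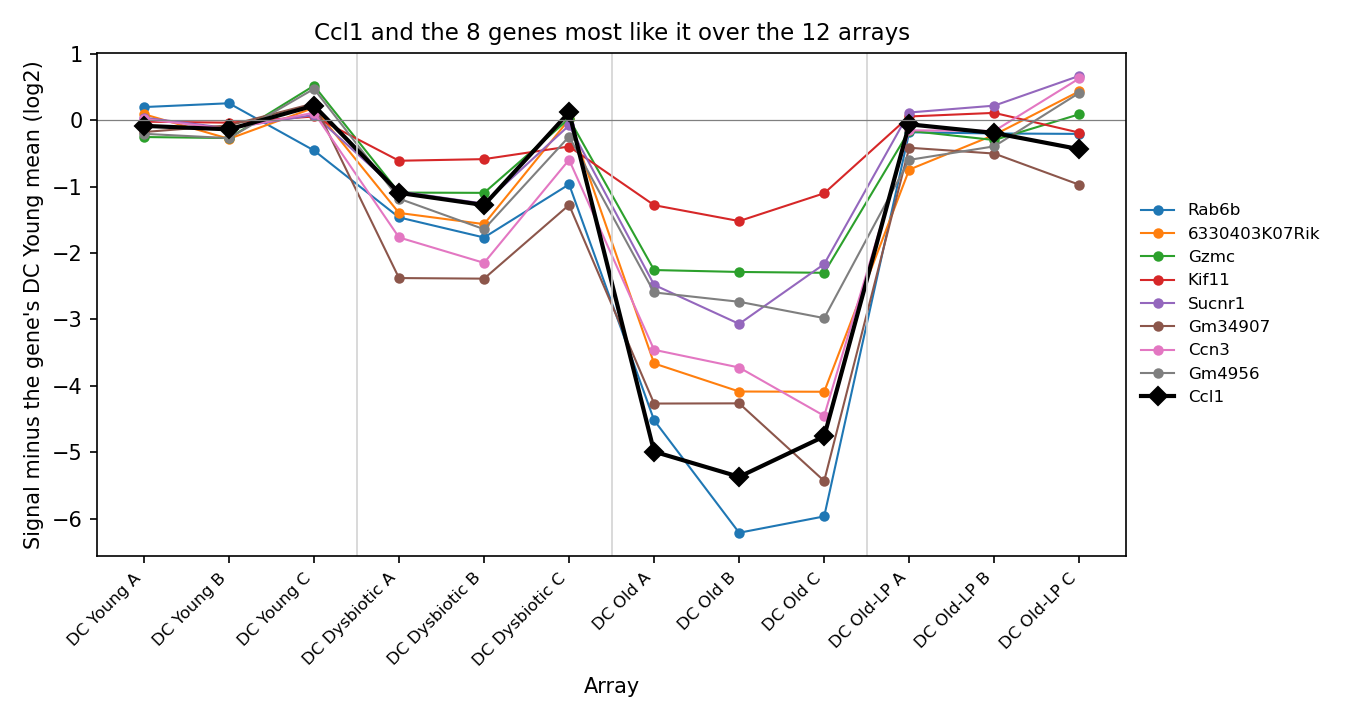
Signal of Ccl1 (black) and of the 8 genes most like it on each of the 12 arrays, each drawn as the log2 difference from the gene's own mean in DC Young (vertical axis). All 9 lines are lowest on the arrays of DC Old, and on DC Dysbiotic A and B they lie below the DC Young mean.

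The genes most like Ccr8 had r of 0.90 to 0.92 over 12 arrays (Dnaic1, a part of the dynein arm of cilia, came first), but on slide 1 alone r was between -0.05 and 0.42. This likeness rests on the C arrays, on which Ccr8 spread most.

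Markers of T cells, which can make CCL1 or carry CCR8, tended to have their lowest values in DC Old, as Ccl1 did. Fewer cells of a type and less RNA per cell cannot be told apart in bulk RNA. All 9 T cell markers were detected, 7 of the 9 were below the DC Young level in DC Old (median -1.1) and 0 were called (4 at an unadjusted p). Cd3d, a chain of the T cell receptor complex, read 12.75, 12.56 and 13.96 in DC Young, 12.38, 12.26 and 13.72 in DC Dysbiotic, 11.64, 11.64 and 10.91 in DC Old, and 12.63, 12.57 and 13.39 in DC Old-LP. Its arrays of DC Old lay below all others, with -1.69 versus DC Young (SE 0.49, adjusted p = 0.32) and 1.47 for DC Old-LP versus DC Old (adjusted p = 0.54). Cd8a, the coreceptor of cytotoxic T cells, differed by -1.53 and 1.41 (adjusted p = 0.56 and 0.73), while Cd4 differed by 0.04 between DC Old and DC Young. Cd8a fell more on the C arrays, with 9.70, 9.54 and 10.89 in DC Young and 8.79, 8.42 and 8.35 in DC Old. Cd247, also on this list, had its highest mean in DC Old, at 11.53 against 11.04 in DC Young, 11.40 in DC Dysbiotic and 10.90 in DC Old-LP. The summed signal of the 9 genes ranged from 14.79 to 15.42 in DC Young, 14.56 to 15.34 in DC Dysbiotic, 13.65 to 14.30 in DC Old and 14.65 to 14.91 in DC Old-LP, on the log2 scale. Here and below, signals were summed before the log2 was taken, so the brightest genes of a list weigh most. On slide 1 the median for DC Old versus DC Young was -0.70, and on the C arrays -1.67. Of these markers, 8 were well above background on all 12 arrays, and Cd3g on 11.

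Among 10 genes of Treg and Th2 cells, the cells that carry CCR8, 9 were below the DC Young level in DC Old (median -1.18) and 9 were higher in DC Old-LP than in DC Old (median 1.40). The same 1 gene was called in each, beside 0.62% and 0.348% of all probes. That gene was Ikzf2 (Helios, a transcription factor of Tregs), which fell by 1.75 (SE 0.25, adjusted p = 0.015) in DC Old and rose by 1.78 (adjusted p = 0.021) in DC Old-LP versus DC Old. These calls held in 17 and 14 of 23 other settings. The first was lost without any 1 array of DC Young or without DC Old B (adjusted p 0.052 to 0.075), and the second without DC Young B, DC Dysbiotic B, DC Old A or B, or any 1 array of DC Old-LP (0.050 to 0.12). With the replicate block 3 of the 10 were called in each, beside 2.18% and 1.65% of all probes. With the slide block 5 were called in each, beside 2.7% and 3.29%. At an unadjusted p, 7 and 8 of the 10 passed, beside 3396 and 3280 of the 56605 probes. For DC Dysbiotic versus DC Young 9 of the 10 were also lower (median -0.60). There 0 were called and 7 passed at an unadjusted p, beside 2181 of all probes. The median for DC Old versus DC Young was -1.16 on slide 1 and -0.97 on the C arrays. Tnfrsf18 (GITR), high on Tregs, had -1.71 for DC Old versus DC Young (adjusted p = 0.055). Ctla4, an inhibitory receptor of T cells, had -2.45 (adjusted p = 0.17), but -0.59 with the normexp background correction, and it was well above background on 9 arrays, at 1.84 on DC Old C. Foxp3, which defines Tregs, was the 1 of the 10 that was higher in DC Old, and it was dim (well above background on 8 arrays). It read 3.93, 3.98 and 3.11 in DC Young and 4.82, 4.73 and 4.74 in DC Dysbiotic. In DC Old it read 5.15, 5.12 and 3.33, and in DC Old-LP 3.90, 3.33 and 3.41. The summed signal of these 10 genes was 12.67 to 12.82 in DC Young, 11.97 to 12.40 in DC Dysbiotic, 11.42 to 11.50 in DC Old and 12.61 to 12.73 in DC Old-LP. In DC Young the gene that weighs most in this sum is Tnfrsf18 (12.06, 12.02 and 11.33), and dim genes such as Foxp3 add little.

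Among 11 genes of mast cells and basophils, 8 were below the DC Young level in DC Old (median -0.27), and Cd200r3 fell (-2.10, SE 0.36, adjusted p = 0.033). Its direction was kept in the other 23 settings, but it was called in only 11 of them, and leaving out any 1 array of DC Young, A or B of DC Dysbiotic, DC Old or DC Old-LP lost the call (adjusted p 0.059 to 0.14). The list's median was -0.45 on slide 1 and 0.38 on the C arrays. The protease Cpa3 of mast cells had -0.45 on slide 1 and 0.80 on the C arrays, Tpsb2 had -0.29 and 0.38, and Mcpt2 was on no array well above background. The summed signal was 13.64 to 14.18 in DC Young and 12.77 to 14.72 in DC Old, which overlap. Of 8 neutrophil genes, 6 were below the DC Young level in DC Old (median -0.56), but the direction turned with the slide, with 6 lower on slide 1 (median -1.55) and 7 higher on the C arrays (median 1.32). Camp, an antimicrobial peptide, rose (2.71, adjusted p = 0.021), a call that held in 18 of 23 other settings and was lost without A or B of DC Young or of DC Old (0.079 to 0.12). Of 5 B cell genes, 4 were lower (median -0.25) and 0 were called (1 at an unadjusted p), with all 5 lower on slide 1 (median -0.90) and all 5 higher on the C arrays (1.38). The 10 macrophage and 12 DC markers had medians of 0.05 and -0.11 with 0 called (1 and 2 at an unadjusted p). With the replicate block 1 macrophage marker, Fcgr1 (-1.24, adjusted p = 0.014), and 2 DC markers, H2-Ab1 (0.79, adjusted p = 0.042) and Cd86 (-0.59, adjusted p = 0.049), were called. That model called 2.18% of all probes. Other H2-Ab1 probes gave 0.09, 0.40 and -0.38 for DC Old versus DC Young, so its direction depended on the probe. Other Cd86 probes gave -0.10 and -0.73. H2-Aa, on the same list, read 14.42, 14.80 and 15.35 in DC Young and 13.31, 13.15 and 14.99 in DC Old. The DC median was -0.25 on slide 1 and 0.22 on the C arrays. The part of any of these cells in the level of Ccl1 was not tested.

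**Figure D5:**
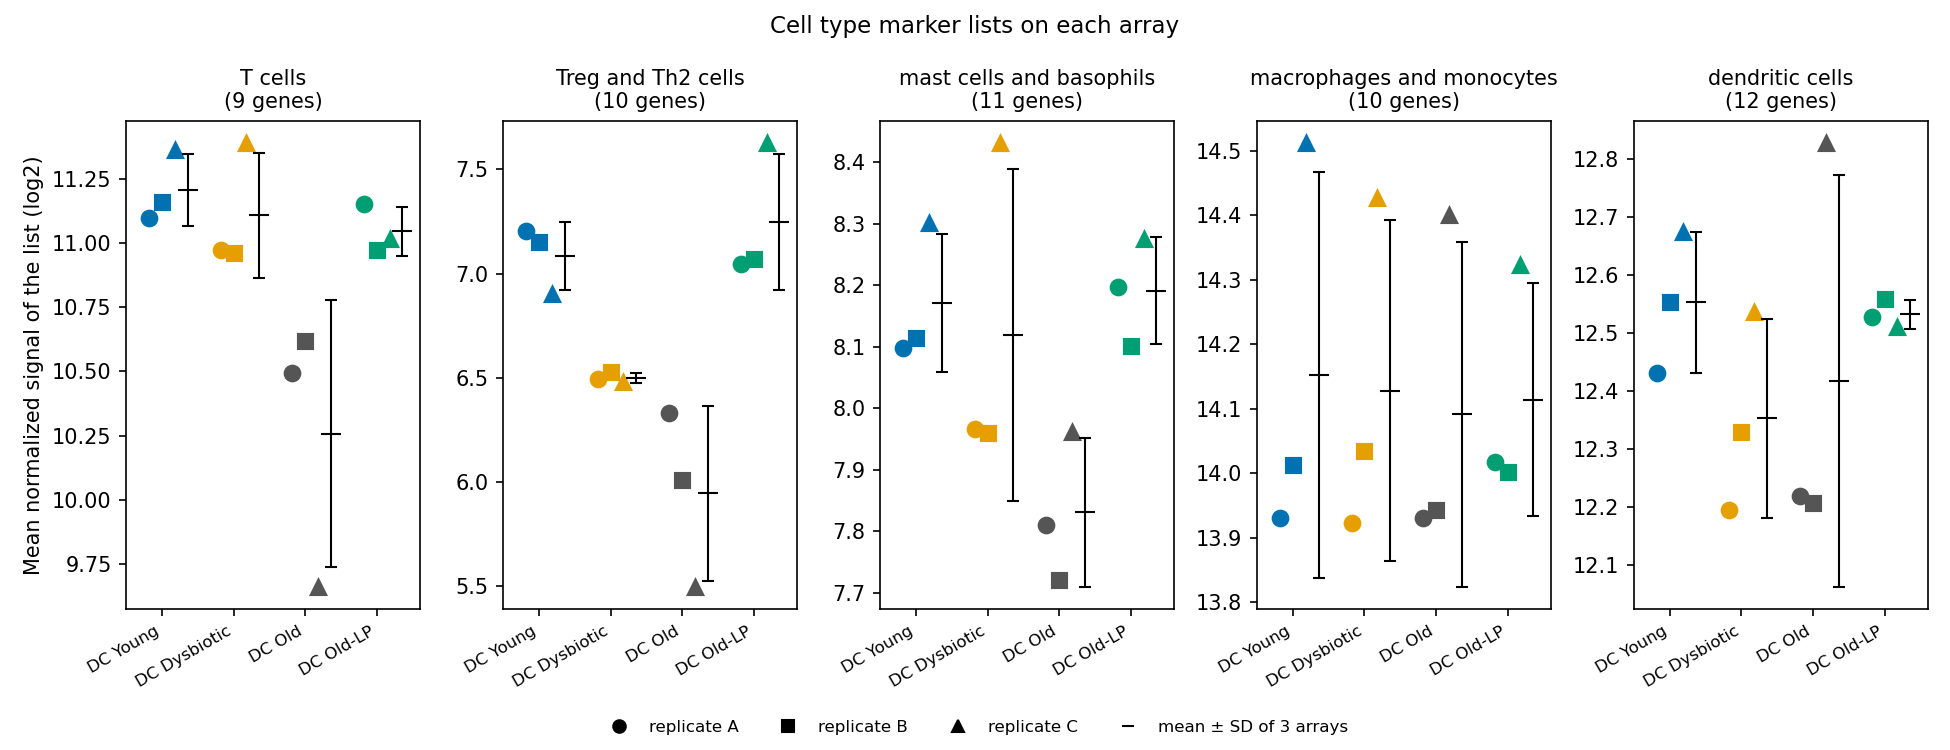
Mean normalized log2 signal (vertical axes, each with its own range) of 5 marker lists on each array, by group along the horizontal axis, with bars for the mean ± SD. The T cell and the Treg and Th2 lists are lowest on the 3 arrays of DC Old, at 9.66 to 10.62 and 5.50 to 6.33, while the macrophage and DC lists overlap between groups.

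Genes known to be induced with Ccl1, or by the IL-4 and LPS of these cultures, were read as well. Macrophages of the type called M2b make Ccl1 together with Il10, Tnfsf14 and Sphk1, and 0 of these 3 were called for DC Old versus DC Young (1, Tnfsf14, at an unadjusted p). Tnfsf14 (LIGHT, a TNF family ligand) had -0.75 and Sphk1 (a sphingosine kinase) -1.07 (adjusted p = 1.00, and 0.030 with the replicate block), while Il10 had 1.93 with an SE of 1.11, which rests on DC Old C (9.05), since slide 1 alone gave 0.70. Of 12 genes that IL-4 induces in myeloid cells, 10 were below the DC Young level in DC Old (median -0.60) and 10 were higher in DC Old-LP than in DC Old (median 0.68). For DC Old versus DC Young, 11 of the 12 were lower on slide 1 (median -0.56), while 7 were higher on the C arrays (median 0.11). The 1 gene called in each, beside 0.62% and 0.348% of all probes, was Pdcd1lg2 (PD-L2, an inhibitory ligand for T cells). It fell by 1.69 (adjusted p = 0.027) and rose by 1.64 (adjusted p = 0.0495), calls that held in 15 and 11 of 23 other settings. The first was lost without A or B of any group except DC Old-LP A (0.053 to 0.16), and the second without any single A or B array, DC Dysbiotic C or DC Old C (0.060 to 0.24). Of 13 cytokine and enzyme genes that LPS induces, 9 were above the DC Young level in DC Old (median 0.55) and 0 were called (2 at an unadjusted p). This rests on the C arrays, where 11 were higher (median 1.03), against 6 on slide 1 (median -0.08). With the replicate block 1 of the 13, Il12a (a subunit of IL-12), was called (1.97, adjusted p = 0.044), beside 2.18% of all probes. Unlike the list, Il12a rose more on slide 1 than on the C arrays. It read 4.86, 5.20 and 6.30 in DC Young and 7.77, 7.62 and 6.88 in DC Old (A, B and C). In DC Dysbiotic it read 7.46, 7.38 and 7.60, and in DC Old-LP 5.28, 5.45 and 5.90.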

How the data were processed

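RNA of LPS-stimulated DCs was measured on 12 arrays (4 groups of 3), with groups and letters from the labels. The deposited intensity of each spot comes from Feature Extraction (version 12.1.1.1 in the file headers), background-subtracted and not normalized between arrays. The deposited log2 table of 46302 probes matched quantile-normalized log2 median signal (r at least 0.999989). Here log2 intensity was quantile normalized, with control spots left out and 1068 outlier readings set to missing, and repeated spots were averaged. A RefSeq table gave gene names by probe accession (35405 probes, GRCm38.p6, used for names, order and promoters; array headers name mm9). limma 3.58.1 in R 4.3.3 fitted a mean per group over all arrays, with 6 contrasts and Benjamini-Hochberg adjustment over all probes, two-sided. The brightest probe on average stood for a gene. The steps were tested on simulated data.

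The members, gene lists and tests were chosen with earlier results of these data known, and no list is independent support. Named genes were both members, all genes of 15 lists (125 genes, of which 2, Ccl19 and Tpsab1, had no probe), the 3 annotated genes on each side, and the 8 most like each member. Likeness was sought among genes with an SD of at least 0.5 over the arrays. Deviations from group means correlated between same-letter arrays of different groups (r 0.415 to 0.711, and -0.659 to -0.466 for C against A or B), so the letters were also tried as a block, although A minus B did not correlate between groups (-0.125 to 0.137). The letters come from the labels. Other settings were a 75th percentile shift, normexp with offset 50 (on median spot signals, since the files hold no mean signal, where the mean had been planned), the deposited table, a filter on dim probes, outliers kept, slide as a block, groups compared alone, an intensity trend, probe means and each array left out. Array number limits the precision. Values of 1 receptor gene are not reported here, although it is in the counts.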

Additional observations from a re-analysis of the deposited data

How the results depend on the processing

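Ccl1 was lowest in DC Old in every setting tried. For DC Old versus DC Young, DC Old-LP versus DC Old and DC Old versus DC Dysbiotic its differences narrowed to -4.04, 3.84 and -3.32 with normexp and to -4.08, 3.87 and -3.34 in the deposited table. Slide 1 alone gave -0.016 for DC Old-LP versus DC Young. The C arrays alone gave -0.10 for DC Dysbiotic versus DC Young, 4.33 for DC Old-LP versus DC Old, -0.66 for DC Old-LP versus DC Young, -4.88 for DC Old versus DC Dysbiotic and, with the sign turned, -0.55 for DC Old-LP versus DC Dysbiotic. With each array left out in turn it ranged from -5.18 to -4.88 for DC Old versus DC Young and from 4.65 to 4.95 for DC Old-LP versus DC Old.

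Ccr8 was called in no setting, but its sign turned with slide as a block (0.048 for DC Old versus DC Young, 0.11 for DC Old versus DC Dysbiotic) and on slide 1 alone (0.21 for DC Dysbiotic versus DC Young, 0.46 for DC Old-LP versus DC Old, 0.10 for DC Old-LP versus DC Young). Leaving out 1 array gave -0.28 to 0.35 for DC Dysbiotic versus DC Young and -1.34 to 0.31 for DC Old-LP versus DC Old. The cause was not tested.

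Ligands other than Ccl1 called for DC Old versus DC Young numbered 2 with normexp, 2 in the deposited table, 3 with the replicate block, 3 with the slide block, 0 when only the groups compared were fitted, 7 on slide 1 alone and 1 to 2 with an array left out. For DC Old-LP versus DC Old they numbered 0 with the 75th percentile shift, 2, 2, 2, 3, 0, 8 and 0 to 2 in that order. For DC Dysbiotic versus DC Young they numbered 2 with the slide block and 5 on slide 1, and for DC Old-LP versus DC Dysbiotic 0 with the shift, 0 with the groups compared alone, 4 on slide 1 and 0 to 1 with an array left out. Receptors called numbered 1 with either block in the 4 comparisons other than DC Old-LP versus DC Young and DC Old versus DC Dysbiotic, and on slide 1 alone 2, 2, 3 and 2 (DC Old versus DC Young, DC Dysbiotic versus DC Young, DC Old-LP versus DC Old, DC Old-LP versus DC Dysbiotic). In that order of 4 comparisons, the share of all probes called was 2.18, 0.984, 1.65 and 0.588% with the replicate block, 2.7, 2.04, 3.29 and 0.728% with the slide block and 9.17, 6.14, 8.24 and 4.81% on slide 1.

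For DC Dysbiotic versus DC Young, uncalled differences of single genes turned sign with 1 array left out, with ranges of -1.21 to 0.20 for Ccr4, -0.96 to 0.11 for Cd3g, -0.77 to 0.13 for Cd3d, -0.42 to 0.14 for Cd3e and -0.66 to 0.32 for Cd8a. Slide, letter and array brightness move together on the C arrays, and dim probes such as Ccr8 are least certain there.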

Other observations

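Genes related to Gzmc, the granzyme among the genes most like Ccl1, were read after the values had been seen and carry no test. Of 10 granzyme genes with a probe, 7 had a positive difference for DC Old versus DC Young and 3 a negative one, with a median of 0.53. The negative ones were Gzmc (-2.28), Gzmb (-2.08) and Gzma (-0.94), and for DC Old-LP versus DC Old these read 2.16, 1.97 and 0.79. Gzmk went the other way, with 3.40 and -2.42, as did Gzmd, with 1.64 and -0.85, but both were well above background on only 8 arrays, and these differences are taken from dim signals. Gzmn was on no array well above background. Of 10 other genes of cytotoxic T cells and NK cells, 9 had a negative difference for DC Old versus DC Young, from -1.66 for Lag3 to -0.16 for Prf1 (perforin). Ncr1, a receptor of NK cells, had a positive one of 0.99 and was well above background on only 4 arrays. The slides differed: Cd8b1 had 0.16 on slide 1 and -1.85 on the C arrays, and Ifng -1.28 and 0.77. Tbx21 had -0.68 and -2.22, Nkg7 -0.65 and -2.16, and Lag3 -1.81 and -1.37. The DC Old and DC Young arrays overlapped for Cd8b1, Eomes, Ifng and Prf1.

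The genes most opposite to Ccl1 over the 12 arrays were Rab38 (r = -0.84), a GTPase of lysosome-related organelles, A930015D03Rik (-0.80) and Trim47 (-0.79). Trim47 read 9.73, 9.78 and 9.69 in DC Young and 10.78, 11.07 and 10.74 in DC Old.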
